A study of Mus musculus with 43 samples.

Results

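The 10 genes described here code for proteins that germ cells make late, in pachytene spermatocytes or in haploid spermatids: Prm1, Prm2, Tnp1, Tnp2, Acrv1, Spaca1, Ldhc, Pgk2, Hspa2 and Gapdhs. They were matched by their GENCODE vM21 symbol to the gene identifiers of the RNA tables, with the version ignored, and all 10 were found among 55450 annotated genes, of which 21951 are protein-coding. Their promoters were then looked up in every peak list, with a promoter taken as 3000 bp to either side of any transcript start. The question was which histone marks stood at these promoters before the genes were expressed, at postnatal day 7 (P7) and day 14 (P14).

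The study profiled 7 histone marks by CUT&Tag, which cuts and tags chromatin where an antibody binds, and measured RNA at P7 by bulk RNA-seq of whole testes and by Smart-seq2 of sorted spermatogonia. The marks are H3K4me3, typical of active or poised promoters, H3K27ac, typical of active promoters and enhancers, and 5 arginine methyl marks (H4R3me2a, H3R2me2a, H3R8me2a, H4R3me1 and H4R3me2s). There are 33 peak lists, 15 from WT cells at P7, 16 from WT cells at P14 and 2 from Prmt1-dKO cells at P7 (H4R3me2s only), with 2 or 3 lists for each mark and age. All mice were C57BL/6J. Prmt1-dKO mice carried Ddx4-CreERT2, active in germ cells, with a floxed Prmt1 whose exons 4 and 5 are removed after tamoxifen on 3 days, so other testis cells keep the gene. RNA was taken from 3 WT and 3 Prmt1-dKO testes and from 2 WT and 2 Prmt1-dKO samples of sorted cells, all at P7. The sorted controls are labelled WT, while the methods describe sorting by a GFP that the Ddx4-CreERT2 allele itself carries, from mice with 1 floxed Prmt1 allele. The labels give P14 cells as spermatocytes in one field and as spermatogonia in another, and no RNA of P14 was analysed here. CUT&Tag cells were a filtered suspension of tubule cells, and the study describes its replicates as biological without the labels tying a library to an animal, so the tests below measure only the spread between these samples.

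Spermatids pack their DNA anew: the transition proteins Tnp1 and Tnp2 displace histones, and the protamines Prm1 and Prm2 then take their place. Acrv1 and Spaca1 are proteins of the acrosome, the vesicle of the sperm head that is released at fertilisation. Ldhc, Pgk2 and Gapdhs are germ cell forms of glycolytic enzymes whose usual forms every cell carries, and Hspa2 is a germ cell form of the chaperone HSP70 that pachytene spermatocytes need to complete meiosis. At P7 the mouse testis holds spermatogonia and, at most, cells entering meiosis, and the first pachytene spermatocytes are present by P14, well before spermatids.

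Library totals lay between 12396345 and 18547103 counts. The sorted libraries stood apart from each other: 17106 and 15587 genes had a count in the WT libraries against 21404 and 20194 in the Prmt1-dKO libraries, and 6.31% of protein-coding genes were seen with 50 counts or more in a single WT library and with 0 or 1 in its replicate. All 9 spermatogonia markers had a mean of 1 TPM (a level per length, scaled to the library) or more in every group, though Zbtb16 was at 0.83 TPM in one WT sorted library. Summed TPM of 4 macrophage markers was 0 in both WT sorted libraries and 26.8 to 30.3 in the Prmt1-dKO ones, and that of 7 Sertoli cell markers was 174 to 179 against 267 to 363. Prmt1 itself was lower in Prmt1-dKO testes by 0.49 on the log2 scale (adjusted p = 0.0334, edgeR's quasi-likelihood test). In sorted cells the difference of -0.88 did not pass (adjusted p = 0.133, same test). There 0 of the 16443 genes tested passed, so this sets Prmt1 apart from no other gene.

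The genes of spermatid chromatin had almost no transcripts at P7. In the WT sorted cells, Prm1, Prm2, Tnp1, Tnp2, Acrv1, Pgk2 and Gapdhs had 0 counts in both libraries, which allows up to 0.162 and 0.169 CPM for each gene (3 counts of the library total, counting error only). In WT testes Tnp1 had 0, 2.76 and 1.59 TPM, from 0, 5 and 3 counts. Prm2 had 0, 0.27 and 0 TPM, and Prm1 and Tnp2 had 0 counts in each of the 3 libraries. Acrv1 had 1 count in one WT testis library and none in the other 2, Gapdhs likewise 1 count in one library, and Pgk2 had 0, 1 and 2 counts. At this depth these are single reads, and no order can be read among them.

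Hspa2 was the exception among the 10, with transcripts in every library. It stood at 26.02, 28.16 and 28.5 TPM in the WT testes and at 59.01 and 44.51 TPM in the WT sorted cells, a mean of 27.6 ± 1.34 (SD, n = 3) and of 51.8 ± 10.3 (SD, n = 2). Spaca1 had 2.91, 2.85 and 3.0 TPM in the WT testes, from 26 to 30 counts. In the WT sorted cells Spaca1 had 5.6 TPM (85 counts) in one library and 0 in the other. Ldhc had 0.61, 1.24 and 1.13 TPM in the WT testes, and 7.19 TPM (98 counts) and 0 in the same 2 sorted libraries. The sorted library without Spaca1 and Ldhc is the one with 15587 genes, so its 0 values are listed here and not averaged into a statement about spermatogonia. In WT testes the order of levels was Hspa2, Spaca1, then Tnp1 (1.45 ± 1.39, SD) and Ldhc (0.993 ± 0.337, SD), n = 3 each. The libraries of Tnp1 and Ldhc overlapped, and every library of Spaca1 was above every library of both.

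By the threshold of a mean of at least 1 TPM, 3 of the 10 genes counted as expressed in WT testes (Hspa2, Spaca1 and Tnp1) and 3 in WT sorted cells (Hspa2, Spaca1 and Ldhc). Over all protein-coding genes 62.6% passed in WT testes and 53.7% in WT sorted cells. The Tnp1 call rests on 0, 5 and 3 counts: without the second WT testis library only Hspa2 and Spaca1 passed, and without the first Ldhc passed as well. Without the first WT sorted library only Hspa2 passed in sorted cells.

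The forms of the same enzymes that other cells use were abundant in the same libraries. Gapdh was at 754.0 and 633.1 TPM in the WT sorted cells, against 0 for Gapdhs. Pgk1 was at 69.29 and 12.2 TPM there, against 0 for Pgk2. Ldhb was at 156.7 and 186.14 TPM and Ldha at 28.24 and 11.43 TPM, against 7.19 and 0 TPM for Ldhc. Hspa8, the chaperone made in all cells, was at 1685.85 and 1312.94 TPM, while the heat-inducible Hspa1a was at 0.7 and 0 TPM and Hspa1b at 0 and 0.08 TPM, all beside the 59.01 and 44.51 TPM of Hspa2. Hspa2 and Ldhc had whole expected counts in all 10 libraries, so no fractions of reads were shared out to them, while Hspa8, Hspa1a and Gapdh had fractional counts. Between genotypes, edgeR called 0 of these 7 genes at 2-fold in either assay. In testes 3 of the 7 passed the adjusted p alone, Pgk1, Hspa1a and Hspa1b, all lower in Prmt1-dKO, where 19.1% of all genes tested passed by that rule in either direction. All 7 were marked by H3K4me3 at both ages. For protein-coding genes at 1 TPM or more in WT sorted cells, as 5 of the 7 were, the background was 91.4% (P7) and 93.5% (P14). Hspa1a and Hspa1b were under 1 TPM there, and the background for such genes was 25.3% and 28.1%. In WT testes both were abundant, with means of 47.1 and 36.7 TPM.

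**Figure D1:**
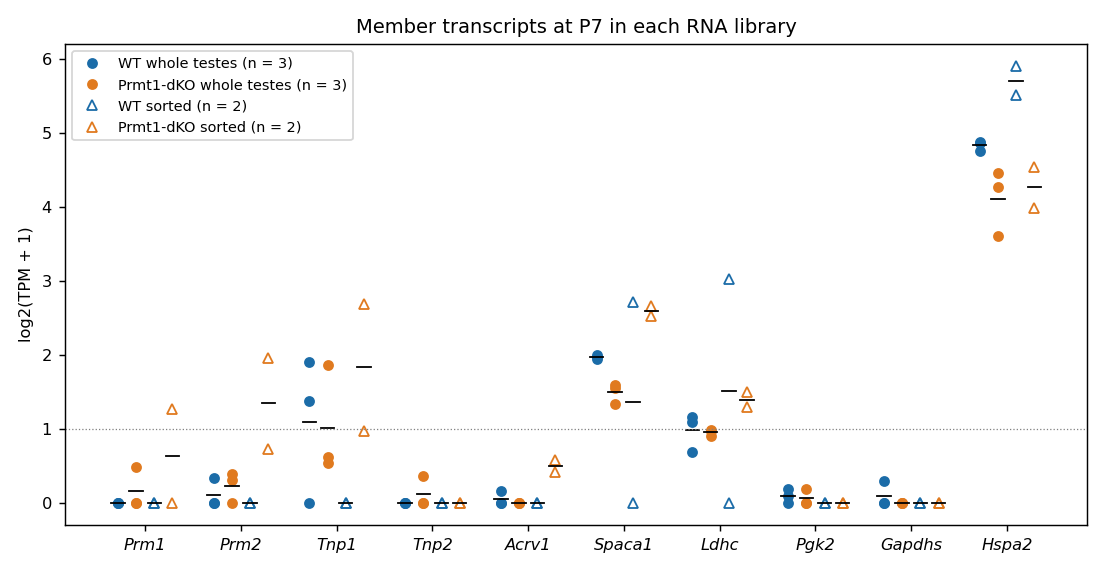
Level of each of the 10 genes at P7 on a log2(TPM + 1) scale, 1 point per library and a bar at the group mean, with circles for whole testes and triangles for sorted cells, blue for WT and orange for Prmt1-dKO. The dotted line is 1 TPM. Hspa2 is above it in all 10 libraries, and the Prmt1-dKO points of Hspa2 lie below the WT points of the same assay.

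Between genotypes, edgeR called none of the 10 genes, and DESeq2 called Hspa2 in sorted cells. In whole testes 2 of the 10 had enough counts to be tested, and edgeR called 0 of them, against 7.1% of all genes tested. At an unadjusted p under 0.05 edgeR had 1 of the 2, against 33.9% of all genes. DESeq2 also called 0 there, with 5.58% of its genes called. In sorted cells 3 were tested, and edgeR called 0 of them, as it called 0% of all genes. At an unadjusted p under 0.05 edgeR had 1 of the 3, against 23.8% of all genes. DESeq2 called 1 of the 10 there, Hspa2, among 7.67% of its genes. With 2 libraries against 2, neither the absence of edgeR calls nor the DESeq2 call is firm.

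Hspa2 was lower in the Prmt1-dKO libraries of both assays. In testes it had 21.07, 18.33 and 11.17 TPM in Prmt1-dKO, and every value was under the 26.02 TPM of the lowest WT library. The difference was -0.55 on the log2 scale (SE 0.21, adjusted p = 0.102 with edgeR and 0.0574 with DESeq2), under 2-fold in every alternative, with adjusted p between 0.00664 and 0.217. In sorted cells it had 14.92 and 22.3 TPM in Prmt1-dKO, again under both WT values, with a difference of -1.27 (SE 0.29, adjusted p = 0.0774 with edgeR and 0.00398 with DESeq2). In CPM, the library share of counts, all Prmt1-dKO libraries lay below all WT libraries for both genes tested in testes and for Hspa2 alone of the 3 tested in sorted cells. Such a separation in the lower direction was seen for 19.9% of all genes tested in testes and for 20.3% in sorted cells. The difference between the assays in this effect was -0.63 on the log2 scale and did not pass a test of its own (adjusted p = 0.318, edgeR interaction term). In sorted cells edgeR called Hspa2 when either WT library was left out (adjusted p = 0.00109 without the first and 1.91e-06 without the second, with the lone WT library taken to vary like the others). Those fits called 41.4% and 33.7% of all genes tested. Without either Prmt1-dKO library the adjusted p was 1.0 and edgeR called 0 genes.

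Marker genes of the cell types were set beside Hspa2. Over all genes edgeR passed 19.1% in testes on the adjusted p and called 7.1% at 2-fold. In whole testes fewer cells of a type and less RNA per cell cannot be told apart: of 9 spermatogonia markers, Ddx4 alone passed and was lower, and the summed TPM of the 9 was 1700 to 1970 in WT and 1550 to 1620 in Prmt1-dKO testes. In sorted cells the summed TPM of 6 early meiotic markers was 549 to 572 in WT and 311 to 339 in Prmt1-dKO, and edgeR passed 0 of the 5 tested. In whole testes that sum was 108 to 131 against 129 to 153, and 3 of the 5 tested passed, all higher in Prmt1-dKO, with Spo11 called at 2-fold. Somatic markers also differed there: edgeR called 4 of 5 Leydig cell markers (Cyp17a1, Star, Cyp11a1 and Insl3), 3 of 3 myoid markers (Cnn1, Myh11 and Acta2) and 1 of 6 tested Sertoli cell markers (Amh) lower in Prmt1-dKO. Summed TPM was 618 to 719 in WT against 156 to 178 for the Leydig list, 627 to 671 against 196 to 352 for the myoid list and 3740 to 4030 against 2510 to 2850 for the Sertoli list. The macrophage list went the other way, at 55.6 to 63.3 in WT against 77.9 to 86.0, with 1 of 4 markers passing as higher, and of 3 endothelial markers 1 passed as higher and 1 as lower. The part of cell composition in the values of Hspa2 was not tested.

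Spaca1 had 1.54, 1.94 and 2.02 TPM in Prmt1-dKO testes, below all 3 WT values, and did not pass (log2 difference -0.51, SE 0.31, adjusted p = 0.296 with edgeR). In Prmt1-dKO sorted cells it had 4.74 and 5.32 TPM, between the 2 WT values. Ldhc had 0.87, 0.97 and 0.98 TPM in Prmt1-dKO testes, within the WT range, and 1.46 and 1.82 TPM in Prmt1-dKO sorted cells. Neither passed in sorted cells, with log2 differences of 1.06 for Spaca1 and -0.75 for Ldhc (SE 2.28 each, adjusted p = 0.86 and 0.903 with edgeR). Without the first WT sorted library, which leaves the one at 0, the fitted difference of Ldhc was positive, and both genes then passed, in the fit that called 41.4% of all genes tested.

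Spermatid transcripts turned up at a few counts in the Prmt1-dKO sorted cells. Prm2 had 4 and 16 counts (0.66 and 2.9 TPM), Tnp1 had 18 and 3 counts (5.45 and 0.97 TPM) and Acrv1 had 20 and 4 counts (0.5 and 0.34 TPM), where both WT libraries had 0. Against a floor of 3 counts over both WT libraries, the summed share of counts was at least 7.44-fold higher for Prm2, 7.81-fold for Tnp1 and 8.92-fold for Acrv1, bounds that cover counting error only. Each rests mainly on one Prmt1-dKO library: by the other alone the bound was 2.85-fold for Prm2 and 3.1-fold for Acrv1, and the 3 counts of Tnp1 were at the floor. Prm1 had 0 and 5 counts in Prmt1-dKO. These genes did not reach the count filter, and without it their adjusted p values in edgeR were 0.279 for Prm2, 0.284 for Tnp1 and 0.27 for Acrv1. The pattern of 0 in both WT and at least 1 count in both Prmt1-dKO libraries was shared by 1566 protein-coding genes, 7.15% of all, against 53 genes with the reverse. The Prmt1-dKO libraries are also those with more genes detected and with macrophage transcripts, and the part of either in these counts was not tested. In whole testes the same genes had at most 5 counts in any library of either genotype.

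At the promoters, the 10 genes fell into 3 kinds. Hspa2 had a peak summit in 30 of the 33 lists. Prm1, Acrv1 and Pgk2 had none in any list. The other 6 had peaks in 1 to 18 lists. A gene is called marked here when at least 2 replicate lists of a mark and age hold a summit within 3000 bp of one of its transcript starts. The share of all protein-coding genes marked in the same way is given as the background. By that rule Prm1, Prm2, Tnp1, Acrv1 and Pgk2 were marked in 0 of 15 groups of lists. Each shared that state with 5690 other protein-coding genes of 21951. Hspa2 was marked in 13 groups, and 67 other protein-coding genes were marked in the same ones.

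**Figure D2:**
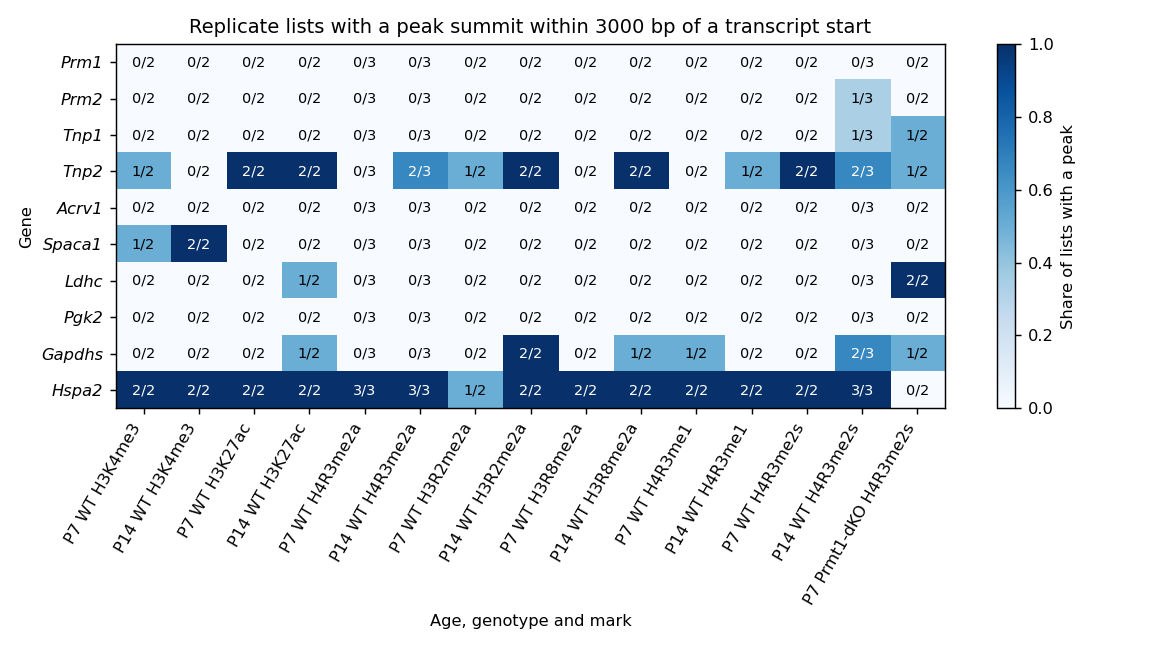
Number of replicate lists with a peak summit within 3000 bp of a transcript start, over the number of lists, for each gene (rows) and each mark, age and genotype (columns), shaded by the share of lists. Hspa2 is marked in 13 of the 15 columns, and Prm1, Prm2, Tnp1, Acrv1 and Pgk2 in 0.

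H3K4me3 stood at 1 of the 10 promoters at P7, that of Hspa2, where 60.7% of protein-coding genes were marked. At P14 it stood at 2, Hspa2 and Spaca1, against 63.1%. H3K27ac marked 2 promoters at P7, Hspa2 and Tnp2 (background 31%), and the same 2 at P14 (48.9%). The arginine marks were counted as pairs of a gene and a mark, 50 in all. At P7 5 pairs were marked, against 12.9% of pairs over all protein-coding genes, and at P14 11 pairs, against 39.5%. The rise from 5 to 11 thus went with a rise at all genes, and the P14 lists were mostly longer (18423 to 55908 peaks) than the P7 lists (15361 to 36145).

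By single mark at P7, H4R3me2a (background 15.3%), H3R8me2a (9.71%) and H4R3me1 (10.8%) marked Hspa2, H3R2me2a (11%) marked none, and H4R3me2s (17.8%) marked Hspa2 and Tnp2. At P14, H4R3me2a (49%) and H3R8me2a (33%) marked Hspa2 and Tnp2, H3R2me2a (51.3%) and H4R3me2s (34.2%) marked these and Gapdhs, and H4R3me1 (29.9%) marked Hspa2. The 3 H4R3me2s lists of P14 name their peaks with another prefix (SD17) than the other P14 lists. Without them 8 pairs were marked at P14, but the pairs of H4R3me2s then leave the total as well. No background was counted for that smaller total. The H4R3me2s lists of P7 also have prefixes of their own, SD7 in WT and SKO in Prmt1-dKO, and the WT ones stay in the P7 count.

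Hspa2 (ENSMUSG00000059970.7) lies at chr12:76404176-76406938 of GRCm38, plus strand. Its H3K4me3 peak at P7 spanned chr12:76403329-76404752 in the first list and chr12:76403502-76404984 in the second, across the start of the gene. Those peaks were 1424 and 1483 bp wide, where the median peak of each list was 853 and 793 bp. At P14 the peaks were 2383 and 2323 bp wide, at chr12:76403275-76405657 and chr12:76403260-76405582. Only 0.16% and 0.225% of the peaks of those lists were as wide or wider, against 15.8% and 10.6% at P7. In both P7 lists the summit of the wide peak, 286 and 159 bp before the start, was nearer to the start of 4930426I24Rik, a lincRNA that begins 194 bp upstream on the other strand. With each summit given to its nearest start, H3K4me3 no longer marked Hspa2 at either age. With 2 lists per age an exact permutation test cannot reach 0.05, so this is a description.

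The place of the Hspa2 peaks within their lists is given as a share of the list, which a longer list lowers by itself, and the P14 lists of H3K27ac and H4R3me2a held more peaks than those of P7. The best H3K27ac peak at its promoter was within the first 75.1% and 13.6% of the 2 P7 lists by p, and within the first 6.08% and 9.42% of the P14 lists. For H4R3me2a the best peak was within the first 68.9%, 46.1% and 74.5% of the 3 P7 lists and within the first 8.98%, 8.26% and 2.74% of the P14 lists. As plain ranks these were 11712, 8624 and 12954 at P7 and 3555, 3705 and 1107 at P14 for H4R3me2a, while for H3K27ac they were 16506 and 3224 at P7 and 2311 and 4317 at P14, which overlap. For H4R3me1 the ranks were 12.4% and 92.4% at P7 and 13.4% and 3.15% at P14, which overlap. The ranks overlapped also for H3R8me2a, with 39.9% and 37.9% at P7 and 48.4% and 14.4% at P14, and for H4R3me2s, with 31.3% and 40.9% at P7 and 17.5%, 89.6% and 7.04% at P14. The q-values the authors' peak caller gave to the H4R3me2a peaks at P7 were 0.348 to 0.393, and those at P14 were 0.0016, 0.000581 and 2.3e-06.

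H3R2me2a was at Hspa2 in 1 of 2 lists at P7 (q = 0.0589) and in both at P14. H4R3me2s was there in both P7 lists, 267 bp before the start in one and 1061 bp after the second transcript start in the other, so the 2 lists did not show the same place. Of the 30 lists with a peak, 13 had every summit nearer to the start of 4930426I24Rik than to that of Hspa2, so that marks of both starts cannot be told apart. 4930426I24Rik had 9.1 and 0 TPM in WT sorted cells and 0.32, 0.57 and 0.56 TPM in WT testes.

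**Figure D3:**
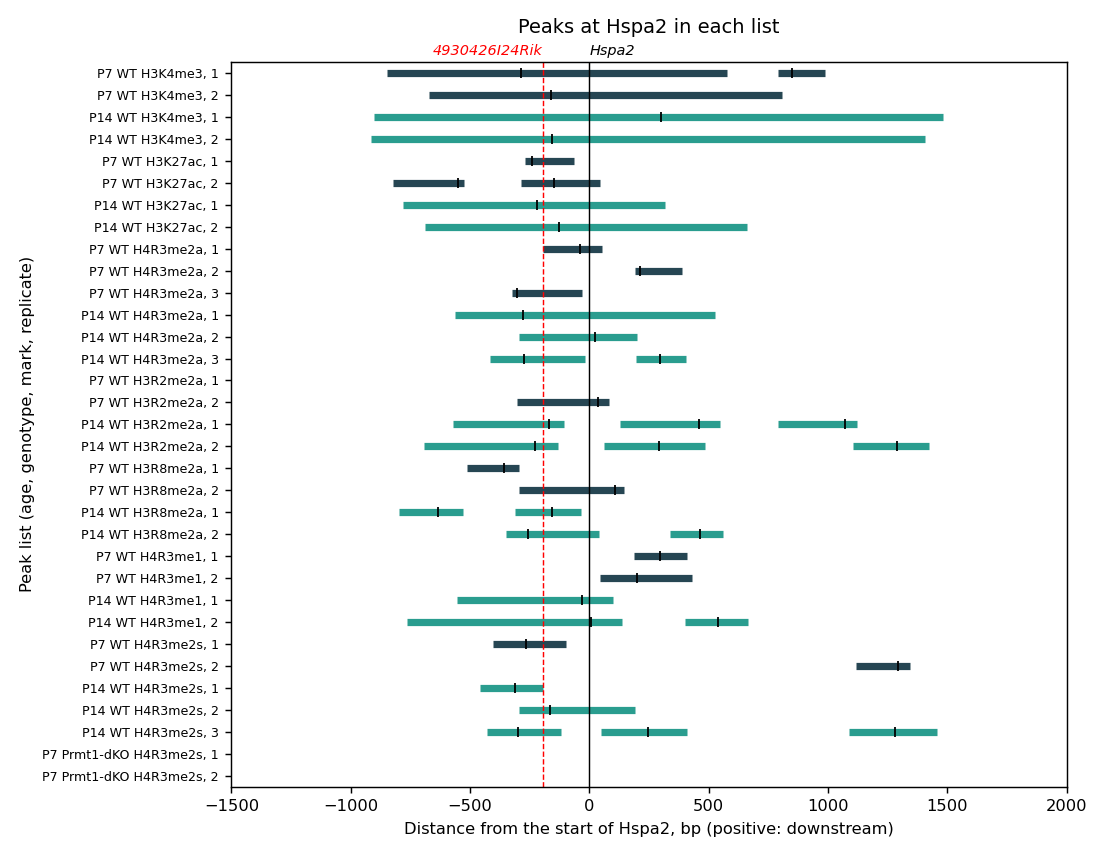
Peaks at Hspa2 in each of the 33 lists (rows), as bars from first to last base with a tick at the summit, against the distance in bp from the first base of the gene. P7 WT lists are dark, P14 WT lists are green, the dashed line is the start of 4930426I24Rik, and the 2 Prmt1-dKO H4R3me2s lists hold no peak here. The P14 H3K4me3 bars reach beyond the P7 bars on the side of the gene body.

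Spaca1 (ENSMUSG00000028264.16, chr4:34024874-34050191, minus strand) carried H3K4me3 and no other mark in any list. At P7 the first list had a peak of 414 bp, with its summit 121 bp after one of the gene's 3 transcript starts, not the outermost. Its fold enrichment was 6.37 over the local background (q = 3.52e-09), and the second list had no peak. At P14 both lists had a peak, 140 and 109 bp after the same transcript start, with q = 6.8e-06 and 1.53e-13. With each list cut to the length of the shortest H3K4me3 list (18465 peaks), Spaca1 was no longer marked at P14: its peak in the first list ranked 18253 in a block of tied p that the cut divided. Among protein-coding genes, 831 were marked by H3K4me3 at P14 and not at P7, and 297 the other way.

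Tnp2 (ENSMUSG00000043050.8, chr16:10787936-10788660, minus strand) had summits in 18 lists, all of them 1485 to 2925 bp downstream of its start. Its neighbour Socs1, a cytokine signalling inhibitor that was at 21.65 and 18.14 TPM in WT sorted cells, begins 3124 bp downstream of the same point on the same strand. In 16 of the 18 lists every summit was nearer to Socs1 than to any other start. With each summit given to the nearest transcript start, Tnp2 was marked by no mark at either age. The H3K27ac, H4R3me2a, H3R2me2a, H3R8me2a and H4R3me2s calls of Tnp2 above therefore describe the interval between both genes. No summit in any list lay upstream of Tnp2 within 3000 bp, where Prm3 begins 2254 bp away.

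**Figure D4:**
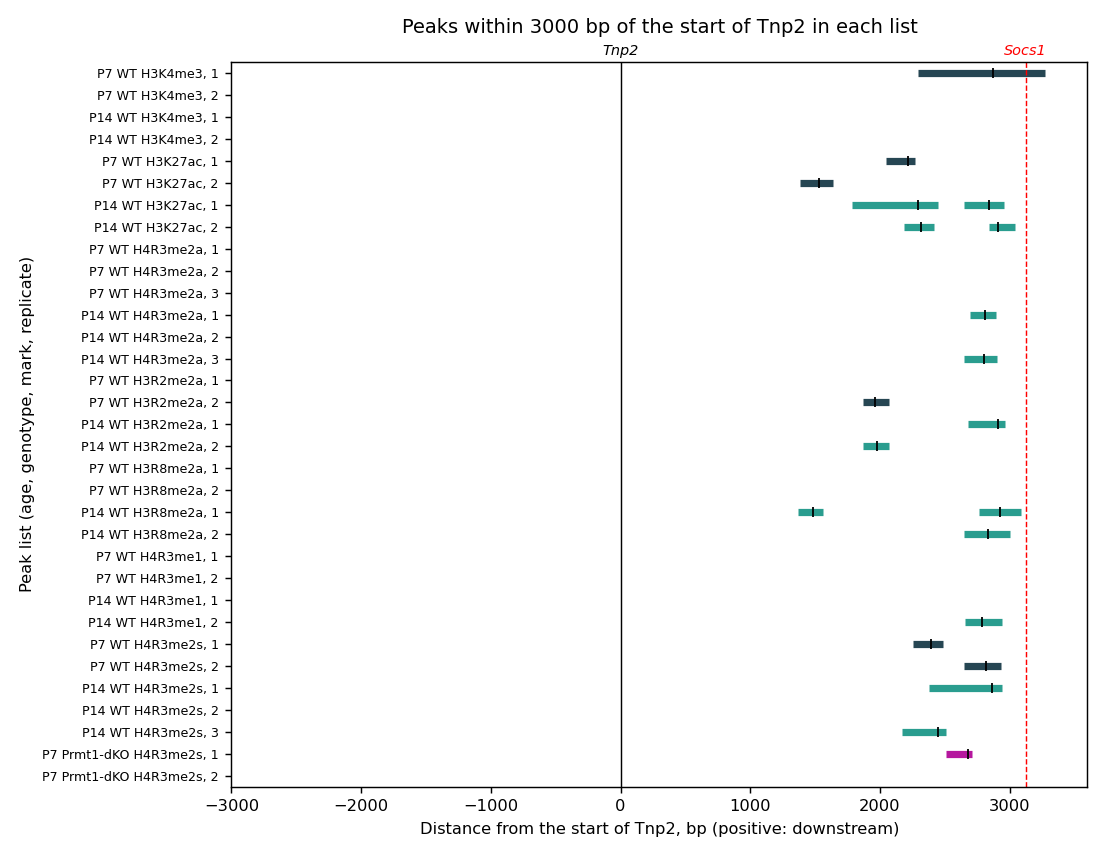
Peaks with a summit within 3000 bp of the start of Tnp2 in each list (rows), as bars with a tick at the summit, against the distance in bp from that start along the gene's strand. Dark bars are P7 WT, green P14 WT and magenta Prmt1-dKO, and the dashed line is the start of Socs1. Every bar lies between 1365 and 3275 bp downstream, and none touches the start of Tnp2.

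The remaining peaks were few, with q-values between 0.00735 and 0.968. Gapdhs (ENSMUSG00000061099.12, chr7:30729775-30743681, minus strand) had peaks in 8 lists, among them both P14 H3R2me2a lists with summits 443 and 379 bp after its first start (q = 0.0343 and 0.0585). Its P14 H4R3me2s call rests on summits 642 bp after one start in the second list (q = 0.707) and 650 bp after another start in the third (q = 0.155), so these lists did not show the same place. The antisense RNA Tmem147os begins 362 bp from one of its starts. Prm2 (ENSMUSG00000038015.6, chr16:10791380-10796134, minus strand) had a peak in 1 list only, a P14 H4R3me2s list, 621 bp before a start (q = 0.155). Tnp1 (ENSMUSG00000026182.6, chr1:73015074-73015909, minus strand) had 1 in a P14 and 1 in a Prmt1-dKO H4R3me2s list, 2057 and 2063 bp downstream of its start. Ldhc (ENSMUSG00000030851.15, chr7:46861203-46878142, plus strand) had H3K27ac in 1 of 2 lists at P14, 2239 bp upstream (q = 0.00735), and in no WT list at P7.

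Around Prm1, Acrv1 and Pgk2 the nearest summit was farther away. The closest of any mark was 3075 bp from a start of Prm1, 11575 bp from Acrv1 and 20733 bp from Pgk2. For H3K4me3 it was at least 11094 bp from a start of Prm1 at P7, 32673 bp from Acrv1 and 360509 bp from Pgk2, and at P14 11869, 33414 and 278563 bp. Acrv1 (ENSMUSG00000032110.4, chr9:36693220-36698843, plus strand) begins 31 bp from the lncRNA 1700027I24Rik, which had 0 counts in every WT library and 13 and 12 counts in the Prmt1-dKO sorted cells. Prm1 (ENSMUSG00000022501.6, chr16:10796326-10805839, minus strand) has a start 752 bp from one of Prm2, so both genes shared part of their windows. Other transcripts that begin inside the windows are 1700027A15Rik at 127 bp from Tnp1, Gm49367 at 251 bp from Acrv1, Gm26935 at 1754 bp from Gapdhs, and Gm46563 at 1057 bp from Prm1. Pgk2 (ENSMUSG00000031233.6, chr17:40207015-40208640, minus strand) had 0 counts in all 4 sorted libraries.

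In Prmt1-dKO cells H4R3me2s marked 1 of the 10 promoters, that of Ldhc, against 9.82% of protein-coding genes (17.8% in WT at P7). The summits at Ldhc were 2985 bp after one of its starts in the first list and 92 bp before another in the second, with q = 0.823 and 0.306, so they did not mark the same place. Hspa2, with H4R3me2s in both WT lists at P7, had no peak in either Prmt1-dKO list. The WT peaks there had q = 0.0482 and 0.602, and an exact permutation test of 2 lists against 2 cannot reach 0.05. Tnp2 had a peak in both WT lists and in 1 of 2 Prmt1-dKO lists.

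The 10 genes were then set beside other genes of their stages. Of 15 other pachytene genes, 10 were marked by H3K4me3 at P7 and 11 at P14. Of 20 other spermatid genes, 5 were marked at P7 and 6 at P14. The level of RNA splits these counts. Of the genes under 1 TPM in WT sorted cells, H3K4me3 at P7 marked 0 of 7 of the 10 genes. It marked 2 of 6 other pachytene genes and 2 of 14 other spermatid genes, against 25.3% of 10144 protein-coding genes under 1 TPM. Among 7624 protein-coding genes under 1 TPM in WT testes as well, a class without Tnp1, the share was 12.2%. Of the genes of these lists at 1 TPM or more in WT sorted cells, H3K4me3 marked 1 of 3, 8 of 9 and 3 of 6. That compares with 91.4% of 11753 protein-coding genes. These counts are small and carry no test. Assignment to the nearest start was checked for the 10 genes only, so a mark in the other lists can be that of a neighbouring gene. The split depends on the library, since several genes had 0 TPM in one of both: by the first WT library alone H3K4me3 marked 0 of 7, 4 of 8 and 2 of 13 genes under 1 TPM, and by the second alone 0 of 9, 4 of 9 and 3 of 17, against 27.3% and 30.6% of protein-coding genes. At 1 TPM or more it marked 1 of 3, 6 of 7 and 3 of 7 by the first and 1 of 1, 6 of 6 and 2 of 3 by the second, against 92.3% and 92.7%.

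Some genes of these lists had H3K4me3 and at most 2 counts in a WT sorted library. Hspa1l, another HSP70 gene, and Nme5, both of the pachytene list, were marked by H3K4me3 at P7 and had 0 counts in both WT sorted libraries. At P14 Hspa1l was marked and Nme5 was not. Hspa1l had 2.81, 3.74 and 3.18 TPM in WT testes, and its counts can be shared with Hspa1a and Hspa1b. Tssk1 and Tssk6, kinases of spermatids, were marked likewise, with 0 and 0 counts and with 2 and 0 counts. In WT testes Tssk6 had 4.49, 2.81 and 4.46 TPM, Nme5 had 0.98, 1.64 and 1.92 TPM and Tssk1 had 0.55, 0.59 and 0.49 TPM. The CUT&Tag cells were a tubule suspension, filtered by the authors to remove Sertoli cells, and were not sorted. Among the expressed ones, Pdha2 (32.33 and 13.25 TPM), the RNA-binding protein Ybx2 (14.59 and 28.17 TPM) and Ropn1l (23.73 and 17.81 TPM) led the pachytene list, and all 3 were marked at both ages. In the spermatid list Acrbp, an acrosome protein, was at 8.27 and 11.54 TPM without H3K4me3 at either age, while Oaz3 and Zpbp were marked.

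All 10 regulators of pachytene and spermatid transcription were expressed and marked by H3K4me3 at both ages, as were 91.4% (P7) and 93.5% (P14) of all protein-coding genes at 1 TPM or more. The highest were Taf7l and Tbpl1, relatives of general transcription factors, and Atf1, at 105.86 and 173.53, 127.05 and 129.09, and 95.58 and 38.92 TPM in WT sorted cells. Only Mybl1 of these 10, the regulator of pachytene genes, was called by edgeR in testes, where 7.1% of all genes were: 360, 356 and 295 counts in WT testes and 142, 94 and 175 in Prmt1-dKO testes, a log2 difference of -1.15 (SE 0.18, adjusted p = 0.00396, edgeR). Of the pachytene and spermatid lists, edgeR called Pabpc2, Oaz3 and Acrbp higher in Prmt1-dKO testes. Oaz3 differed by 2.95 and Acrbp by 1.12 on the log2 scale (adjusted p = 0.0036 and 0.00823, edgeR). Pabpc2 had 0 counts in WT testes and 13, 19 and 13 in Prmt1-dKO, at least 17.4-fold higher against 3 counts over the WT group.

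**Figure D5:**
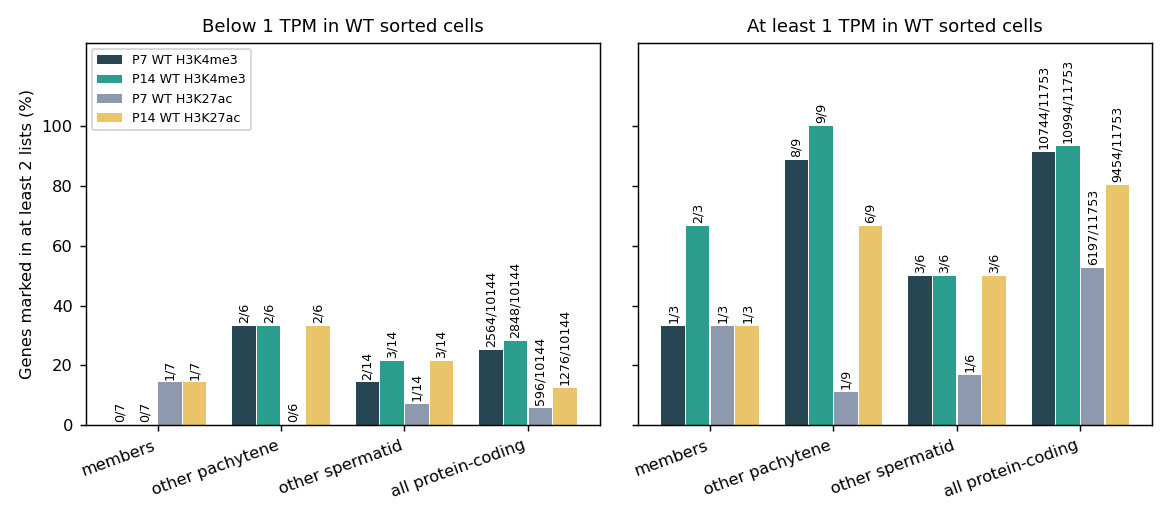
Share of genes marked by H3K4me3 or H3K27ac in at least 2 lists at P7 and P14 (bars start at 0%, with marked over all genes written above), for the 10 genes, the other pachytene and spermatid genes and all protein-coding genes, split at 1 TPM in WT sorted cells. Of the 7 genes under 1 TPM, 0 carry H3K4me3 at either age.

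The promoters differ in their CpG content, which the sequences show. Those below are the RefSeq promoters (GRCm38.p6, 250 bases before and 50 after the start, on the gene's strand, 5′ to 3′) of both genes with H3K4me3 and of 4 without, with each CpG in capitals. Hspa2 is at chr12:76404120-76404419 (plus strand), Spaca1 at chr4:34050016-34050315 (minus), Ldhc at chr7:46861013-46861312 (plus), Tnp1 at chr1:73015850-73016149 (minus), Pgk2 at chr17:40208560-40208859 (minus) and Prm1 at chr16:10796774-10797073 (minus).
Hspa2: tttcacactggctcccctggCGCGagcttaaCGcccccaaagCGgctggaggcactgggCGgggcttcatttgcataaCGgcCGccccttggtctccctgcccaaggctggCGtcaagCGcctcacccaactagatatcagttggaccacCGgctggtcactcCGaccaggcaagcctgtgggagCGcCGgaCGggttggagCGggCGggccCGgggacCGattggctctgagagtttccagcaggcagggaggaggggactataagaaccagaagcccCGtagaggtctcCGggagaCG
Spaca1: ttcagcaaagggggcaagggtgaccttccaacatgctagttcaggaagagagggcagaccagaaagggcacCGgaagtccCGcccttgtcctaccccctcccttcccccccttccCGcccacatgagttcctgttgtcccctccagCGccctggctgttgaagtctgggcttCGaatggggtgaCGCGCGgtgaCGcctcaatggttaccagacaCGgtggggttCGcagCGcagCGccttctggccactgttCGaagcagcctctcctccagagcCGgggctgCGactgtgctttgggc
Ldhc: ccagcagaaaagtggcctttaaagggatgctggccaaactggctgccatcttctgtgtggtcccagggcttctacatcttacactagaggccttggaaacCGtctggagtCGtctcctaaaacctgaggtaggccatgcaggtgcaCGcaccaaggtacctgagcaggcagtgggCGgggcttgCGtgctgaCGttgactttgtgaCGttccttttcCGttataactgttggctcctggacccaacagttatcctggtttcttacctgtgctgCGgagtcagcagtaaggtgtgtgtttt
Tnp1: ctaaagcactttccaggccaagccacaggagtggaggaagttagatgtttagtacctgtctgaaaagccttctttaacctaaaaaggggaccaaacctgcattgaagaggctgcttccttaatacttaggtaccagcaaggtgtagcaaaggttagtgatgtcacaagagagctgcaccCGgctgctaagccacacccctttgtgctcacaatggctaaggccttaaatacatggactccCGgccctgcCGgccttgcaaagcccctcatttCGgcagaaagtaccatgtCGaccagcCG
Pgk2: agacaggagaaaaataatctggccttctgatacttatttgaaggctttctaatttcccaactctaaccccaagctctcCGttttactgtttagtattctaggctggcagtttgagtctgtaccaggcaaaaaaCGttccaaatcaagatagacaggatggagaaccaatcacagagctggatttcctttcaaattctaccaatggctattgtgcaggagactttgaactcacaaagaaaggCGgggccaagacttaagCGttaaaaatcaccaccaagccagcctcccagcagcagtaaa
Prm1: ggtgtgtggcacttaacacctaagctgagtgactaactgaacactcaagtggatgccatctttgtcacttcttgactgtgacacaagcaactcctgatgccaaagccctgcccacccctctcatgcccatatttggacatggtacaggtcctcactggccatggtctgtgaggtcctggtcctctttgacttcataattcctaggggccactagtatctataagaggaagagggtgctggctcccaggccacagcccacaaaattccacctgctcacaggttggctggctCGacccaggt

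Hspa2 had 21 CpGs in these 300 bases and Spaca1 16, numbers reached by 24.8% and 33.0% of 32841 promoters of the table. The others had fewer: Ldhc 9, Tnp1 6, Pgk2, Tnp2 and Gapdhs 4 each, Prm2 3, and Prm1 and Acrv1 1 each, where the median promoter had 7. These are the first promoters of the table: a second promoter of Ldhc had 3 CpGs and one of Gapdhs 1, while that of Spaca1 had 16 as well. Over protein-coding genes in the table, the median was 21 CpGs for 10352 genes with H3K4me3 at P7, 11 for 598 genes that had it at P14 only, and 3 for 5558 genes without it at either age. The same order held among genes under 1 TPM in WT sorted cells, with medians of 15, 10.5 and 2. Hspa2 was at the median of promoters marked at P7, and Spaca1, the gene with H3K4me3 in both lists at P14 only, had more than the median of that class.

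Short motifs were searched as exact letters on both strands of the same windows. TGACG, the short form of the cyclic AMP response element, occurred in Hspa2, Spaca1, Ldhc and Gapdhs, and in 20.8% of all promoters. It stood 2 times in Spaca1 (first base at -69 and -59 from the start) and 2 times in Ldhc (-61 and -47). The full element TGACGTCA, which holds TGACG, was found in none of the 10 and in 1.79% of all promoters. GGGCGG, the core of a GC box, was found in Hspa2 (3 times), Spaca1, Ldhc, Prm2 and Tnp2, and in 35.7% of all promoters, CCAAT in Hspa2 and Pgk2 (37.4%) and TATAAA in Prm2 (13.6%). TGACG, TGACGTCA and GGGCGG each contain a CpG, so their counts overlap with those above, and a match is a description of letters only.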

How the data were processed

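RNA and CUT&Tag libraries of mouse testis germ cells were analysed from the deposited tables. The authors trimmed RNA reads with fastp 0.23.2, aligned them to mm10 with STAR and deposited RSEM expected counts and TPM per gene (RSEM's version is not given in the sources used here). The authors called CUT&Tag peaks in each sample with MACS2 2.1.0 and deposited narrowPeak lists with the fold enrichment at the summit and the −log10 p and −log10 q. The read depth behind the lists is unknown, and the lists differ in length.

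Here expected counts were rounded and tested with edgeR 4.0.16 in R 4.3.3 (filterByExpr with a minimum of 10, TMM, quasi-likelihood test, Benjamini-Hochberg adjusted p under 0.05 and at least 2-fold), each assay apart, with DESeq2 1.42.0 as an alternative. Lists were grouped by GEO's labels. Summits within 3000 bp of GENCODE vM21 transcript starts (mm10 and GRCm38 share coordinates) were assigned to every such gene. Of 55401 table identifiers, 55141 matched the annotation. RefSeq promoters (GRCm38.p6) matched all 10 genes. The scripts were tested on simulated data. Counts were simulated with each gene's own dispersion, a choice made after edgeR had recovered no changed gene in the sorted design under a common dispersion. The patterns of 0, 1 and 50 counts between sorted libraries and the split by each WT sorted library alone, and the fold bounds by one Prmt1-dKO library, were also chosen after the data were seen.

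All 10 genes are named, with their paralogs and genes starting within 3000 bp. Of the other pachytene genes, other spermatid genes and regulators, genes called by edgeR, the 3 with the highest mean TPM in WT sorted cells and the first 3 in alphabetical order that were under 1 TPM and marked by H3K4me3 at P7 are named. Socs1, whose start lies outside that distance, and cell type markers called by edgeR were added after their values were seen. The genes and lists were chosen with earlier results of these data known. Alternatives covered size factors, filters, thresholds, windows, list lengths and left-out replicates.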

Additional observations from a re-analysis of the deposited data

How the results depend on the processing

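Replicate numbers did not pair the samples: same-numbered libraries correlated at 0.0825, -0.221 and -0.119 in testes and at 0.0177 in sorted cells. With a replicate block, Hspa2 differed by -0.59 in testes (adjusted p = 0.128, edgeR), and the log2 difference of Ldhc in sorted cells turned from -0.75 to 1.925. Leaving out a library in sorted cells moved Ldhc between -1.734 and 7.652 and Spaca1 between 0.082 and 9.263 (3.634 with the replicate block). Hspa2 moved between -1.513 and -1.031 there. The upper values of Ldhc and Spaca1 come from the fit without the first WT sorted library. The remaining WT library had 0 TPM for both genes, so these 2 values are not measured folds. Of the 10 genes, DESeq2 called 1 in sorted cells, where it called 7.67% of all its genes. Sorted fits with a library left out leave 1 library in a group, so their calls are not counted here. In testes 0 of the 10 were called in every alternative, while the main edgeR fit called 7.1% of all genes tested there. Of the same 10, 1 counted as expressed in either WT group at a threshold of 5 TPM. With a library left out, 2 to 4 did in testes and 1 to 3 in sorted cells.

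Marked promoters depended on how a summit was assigned. Given to the nearest start, summits marked 0 of the 10 genes for H3K4me3 at P7 and 1 at P14. For H3K27ac they marked 0 at either age, and arginine pairs were 2 (P7) and 5 (P14). With any base of the peak within 3000 bp, H3K4me3 marked 3 at P7 and 4 at P14. Within 1000 bp, H3K27ac marked 1 at each age, arginine pairs were 3 and 7, and Prmt1-dKO H4R3me2s marked 0. At q of at most 0.01, H3K27ac at P7 marked 0, the pairs were 0 and 2, and Prmt1-dKO H4R3me2s marked 0. Of all peaks in the P7 H3K27ac lists, 4515 of 21974 and 6207 of 23780 reached that q. With equal list lengths H3K4me3 at P14 marked 1, the P14 pairs were 6, and Prmt1-dKO H4R3me2s marked 0. With 1 list enough, H3K4me3 at P7 marked 3, H3K27ac at P14 marked 4, the P7 pairs were 8 and Prmt1-dKO H4R3me2s marked 4. With summits of 2 lists within 500 bp, an alternative chosen after seeing the data, H3K27ac at P7 marked 1 and Prmt1-dKO H4R3me2s 0. Leaving out a list, which in groups of 2 lists also lowers the rule to 1 list, gave 1 to 3 genes for H3K4me3 at P7, 5 to 7 pairs at P7, 9 to 12 pairs at P14 and 2 to 3 genes for Prmt1-dKO H4R3me2s. The causes of these moves were not tested beyond what each setting changes by construction. Depth limits the genes with single counts, and peak lists give no depth.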
